A study of Mus musculus with 16 samples.

Results

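The G1 cyclins and their kinases are the genes Ccnd1, Ccnd2, Ccnd3, Ccne1, Ccne2, Cdk2, Cdk4 and Cdk6. They were found as the probe sets whose array annotation gives 1 of these symbols and no other. Each of the 8 genes had 1 such probe set, among 35556 probe sets on the array and 19938 genes with a usable probe set. RNA expression was measured on 16 Affymetrix arrays of mouse brain, 4 in each of 4 groups. The control brain was wild-type normal brain. For the PDGF+p53-/- tumours, a retrovirus that encodes PDGF-B and Cre recombinase was given to mice with floxed p53. The PDGF+p53-/-RBPjk-/- tumours came from the same retrovirus in mice whose RBPjk alleles were floxed as well, RBPjk being the DNA-binding protein of Notch signalling. The p53-/-RBPjk-/- tumours received no retrovirus. There the floxed p53 and RBPjk alleles were deleted by a tamoxifen-dependent Cre under the control of Hes5, a gene of neural stem cells. In all 3 tumour groups floxed p53 was therefore exposed to Cre, and PDGF-B was added in the first pair of them. Loss of p53 was not checked in these data. Tumours were located by a green fluorescent reporter and microdissected once mice were ill, so a piece can hold host brain. Whether the arrays of a group are separate animals is not in the labels. The p-values therefore speak only of the spread among these arrays, which may be technical in part. Sex-linked genes showed both a female and a male pattern within control brain and within each group with PDGF-B. The number of animals per group is not known.

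In textbook terms, D cyclins are made when growth factors reach the cell, and they switch on the kinases Cdk4 and Cdk6. These kinases phosphorylate the retinoblastoma protein and so free the E2F factors, which raise genes for DNA replication and the E cyclins. E cyclins then activate Cdk2, and the cell enters S phase. In the developing brain, D cyclins mark dividing progenitors, and in human glioma Cdk4, Cdk6 and Ccnd2 are known targets of gene amplification.

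The deposited values are log2 intensities, so 1 unit is a doubling, and levels of different probe sets were not set against each other. Array medians ran from 5.97 to 6.06, and arrays of a group correlated at 0.967 to 0.984 across probe sets. Rbpj, which was floxed in 2 tumour groups, lay between 8.17 and 8.50 in PDGF+p53-/- tumours. It lay between 7.55 and 7.88 in PDGF+p53-/-RBPjk-/- tumours, between 7.64 and 7.93 in p53-/-RBPjk-/- tumours and between 7.76 and 8.21 in control brain. Whether its probes lie in the deleted part is not given in the sources used here. In a tissue sample, fewer cells of a type and less RNA per cell cannot be told apart. All 8 neuronal markers fell in every tumour group by limma, and their mean per array ran from 10.56 to 10.61 in control brain and from 6.26 to 8.84 in tumours. All 7 oligodendrocyte precursor markers rose in each tumour group, from array means of 7.06 to 7.28 in control brain to 8.93 to 9.70 in tumours. In every tumour group 6 of 7 astrocyte markers and 5 of 6 oligodendrocyte markers fell. Of 7 neuroblast and stem cell markers 5, 5 and 4 rose and 0, 2 and 2 fell, in the order of tumour groups above. Of 8 microglia and macrophage markers 1 rose in each group and 0, 0 and 6 fell. The other 4 marker lists had at most 2 markers that rose and at most 3 that fell in a group. The part of this shift in cell types in the results against control brain was not tested.

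Of the 8 genes, 6 rose in PDGF+p53-/- tumours against control brain and 0 fell, by limma with Benjamini-Hochberg adjustment over 19938 genes at an adjusted p of 0.05. Among all genes 13.6% rose in that comparison and 17.6% fell. In PDGF+p53-/-RBPjk-/- tumours 6 of 8 rose and 0 fell, against 15.7% of all genes that rose and 17.9% that fell. In p53-/-RBPjk-/- tumours 5 of 8 rose and 0 fell, against 16.4% and 20.4% of all genes. The median difference of the 8 genes was 1.36, 1.58 and 1.10 in that order, while the median over all genes was -0.04, -0.03 and -0.02. Cdk2, Cdk4, Ccnd1, Ccnd3 and Ccne2 rose in all 3 tumour groups, and Ccnd2 rose in both groups with PDGF-B. Ccne1 and Cdk6 passed the test in none. With arrays centred on 8 housekeeping genes, the median of all genes moved up by 0.19, 0.22 and 0.31. Of all calls 66.4%, 71.4% and 75.2% were then higher, against 43.5%, 46.6% and 44.5% as deposited. Every difference of the 8 genes from control brain was positive on both scales. The 3 comparisons share the control arrays and are not independent of each other.

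**Figure D1:**
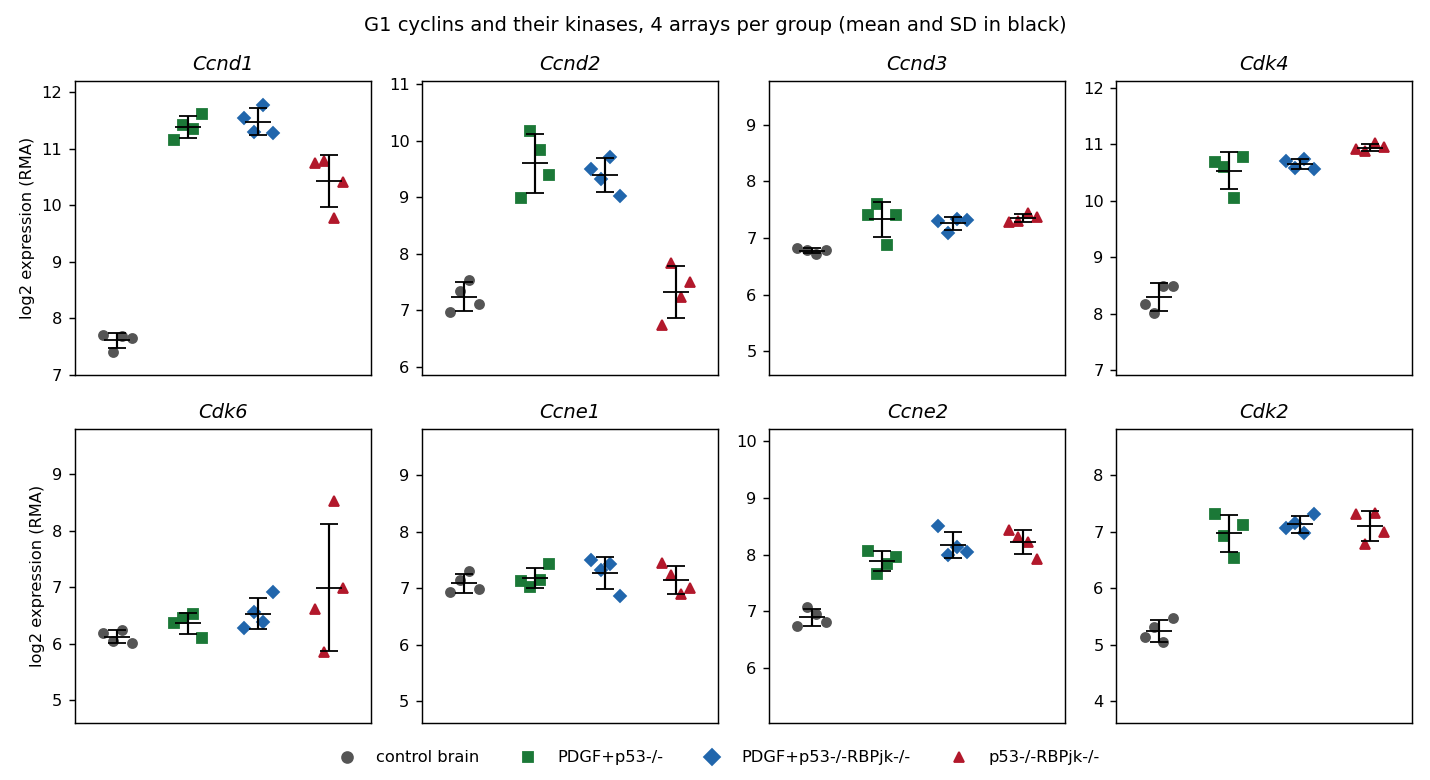
Log2 expression of each of the 8 genes on every array, with 4 points per group, in control brain and the 3 tumour groups; black bars give the group mean and SD. Ccnd1, Cdk4, Cdk2 and Ccne2 sit above all control arrays in every tumour group, while Ccnd2 in p53-/-RBPjk-/- tumours lies at 6.74 to 7.83, across the control range of 6.97 to 7.54.

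Ccnd1, which encodes cyclin D1, the growth-factor-responsive partner of Cdk4 and Cdk6, changed most. Control brain gave 7.70, 7.41, 7.68 and 7.66 in replicates 1 to 4. PDGF+p53-/- tumours gave 11.16, 11.41, 11.35 and 11.62. PDGF+p53-/-RBPjk-/- tumours gave 11.54, 11.29, 11.78 and 11.28. The 2 groups with PDGF-B overlapped each other and lay far above control brain. The p53-/-RBPjk-/- tumours gave 10.74, 10.78, 9.78 and 10.41, between the other tumours and control brain with no overlap on either side. Against control brain the difference was 3.77 ± 0.19 (SE), a 13.7-fold rise, in PDGF+p53-/- tumours (limma, adjusted p = 4.78e-10). It was 3.86 ± 0.19, or 14.5-fold, in PDGF+p53-/-RBPjk-/- tumours (limma, adjusted p = 2.46e-10) and 2.82 ± 0.19, or 7.04-fold, in p53-/-RBPjk-/- tumours (limma, adjusted p = 4.76e-09). Ordered from the highest difference down over 19938 genes, Ccnd1 stood at place 12, 16 and 85 in these comparisons.

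Ccnd2, which encodes cyclin D2, a D cyclin of neural progenitors, separated the tumour groups. Control brain gave 6.97, 7.35, 7.54 and 7.11. PDGF+p53-/- tumours gave 8.99, 10.17, 9.83 and 9.40, and PDGF+p53-/-RBPjk-/- tumours gave 9.50, 9.32, 9.72 and 9.02. Both of these groups lay above every control array. The p53-/-RBPjk-/- tumours gave 6.74, 7.83, 7.24 and 7.51, with the lowest and the highest array on either side of the control range. Ccnd2 rose by 2.35 ± 0.25 (5.12-fold; limma, adjusted p = 1.29e-06) in PDGF+p53-/- tumours. The rise was 2.15 ± 0.25 (4.44-fold; limma, adjusted p = 2.77e-06) in PDGF+p53-/-RBPjk-/- tumours. In p53-/-RBPjk-/- tumours the difference was 0.08 ± 0.25 (limma, adjusted p = 0.831), with a 95% interval from -0.44 to 0.61.

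Ccnd3, which encodes cyclin D3, the third D cyclin, rose by a smaller amount. Control arrays lay within 6.71 to 6.82. PDGF+p53-/- tumours gave 7.41, 7.61, 6.88 and 7.41, PDGF+p53-/-RBPjk-/- tumours lay within 7.09 to 7.34 and p53-/-RBPjk-/- tumours within 7.29 to 7.45. All tumour arrays were above all control arrays, and replicate 3 of the PDGF+p53-/- tumours came nearest to them. The differences were 0.55, 0.49 and 0.58, each ± 0.13, with limma adjusted p of 0.00344, 0.00776 and 0.00191. Without that replicate the PDGF+p53-/- difference was 0.70 (limma, adjusted p = 8.7e-05, within a range of 8.7e-05 to 0.0183 over 25 alternatives). The same array had the highest mean of neuronal markers among the tumours, at 8.84. Within its group its Cdk4 (10.05) and Cdk2 (6.54) were also lowest, while its Cdk6 (6.53) was highest. Its Ccnd1 (11.35), Ccnd2 (9.83), Ccne1 (7.14) and Ccne2 (7.83) lay between those of the other arrays. The part of host brain in these values was not tested.

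Cdk4, the catalytic partner of the D cyclins, rose in every tumour array. Control brain gave 8.18, 8.01, 8.50 and 8.50, and PDGF+p53-/- tumours gave 10.69, 10.59, 10.05 and 10.78. PDGF+p53-/-RBPjk-/- tumours gave 10.71, 10.57, 10.74 and 10.56, and p53-/-RBPjk-/- tumours gave 10.92, 10.87, 11.02 and 10.94. The lowest tumour array was again replicate 3 of the PDGF+p53-/- tumours. The rises were 2.23, 2.35 and 2.64, each ± 0.15, with limma adjusted p of 9.2e-09, 3.43e-09 and 8.66e-10. The last group was the tightest, with an SD of 0.06 (n = 4).

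The 250 bases before the Cdk4 start, from RefSeq on build GRCm38.p6 at chr10:127063285-127063534, plus strand, are shown because their letters include matches for Myc and for RBPJ. Capitals mark 4 copies of CACGTG, the E box that Myc binds, and 1 copy of TTCCCA, the reverse strand of the RBPJ core TGGGAA. No marked motif overlaps another.
Cdk4: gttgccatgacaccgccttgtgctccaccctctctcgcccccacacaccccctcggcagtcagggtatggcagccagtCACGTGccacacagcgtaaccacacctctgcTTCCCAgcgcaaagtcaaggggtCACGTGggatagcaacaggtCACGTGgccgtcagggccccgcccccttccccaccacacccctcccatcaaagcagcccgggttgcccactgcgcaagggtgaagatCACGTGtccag
The E boxes begin at positions -172, -118, -98 and -11 from the start, and the RBPJ letters begin at -141. Of 32851 promoter windows of this length, 6.02% hold CACGTG and 7 hold it at least 4 times, while 21.6% hold the RBPJ core on either strand. The E box was searched after the sequence had been seen. A match describes the letters and does not show binding.

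Cdk6, the second kinase of the D cyclins, did not pass the test in any comparison, and its spread differed between groups. Control arrays lay within 6.02 to 6.25, PDGF+p53-/- tumours within 6.10 to 6.53 and PDGF+p53-/-RBPjk-/- tumours within 6.28 to 6.91. The p53-/-RBPjk-/- tumours gave 6.61, 5.86, 8.52 and 6.98. Replicate 3 there was the highest of 16 arrays and replicate 2 the lowest. The differences from control brain were 0.24, 0.41 and 0.87, each ± 0.36, with limma adjusted p of 0.678, 0.435 and 0.0668. The 95% interval of the last was 0.12 to 1.62, and without replicate 3 it fell to 0.36 (limma, adjusted p = 0.224). Without replicate 2 it was 1.24 (limma, adjusted p = 0.00422), and these are the lowest and highest adjusted p over 25 alternatives, so the 2 arrays decide the value. Arrays of PDGF+p53-/-RBPjk-/- tumours and control brain did not overlap (exact permutation test, two-sided, p = 0.0286, the smallest that 4 against 4 arrays can give). The ± 0.36 pools the spread of all 4 groups. The SD of Cdk6 was 0.11 in control brain and 0.19, 0.28 and 1.12 in the tumour groups in the order above.

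Ccne1, which encodes cyclin E1, an activator of Cdk2, was within a narrow range everywhere. Control arrays ran from 6.93 to 7.30, while tumour arrays ran from 6.86 to 7.49. Every tumour group overlapped control brain. The differences were 0.09, 0.19 and 0.06, each ± 0.16, with limma adjusted p of 0.718, 0.408 and 0.811.

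Ccne2, which encodes cyclin E2, the other E cyclin, rose in all 3 tumour groups. Control arrays gave 6.73, 7.08, 6.95 and 6.80. PDGF+p53-/- tumours gave 8.07, 7.66, 7.83 and 7.96, PDGF+p53-/-RBPjk-/- tumours 8.50, 7.99, 8.14 and 8.05, and p53-/-RBPjk-/- tumours 8.43, 8.31, 8.22 and 7.92. No tumour array reached down to the control range. The rises were 0.99, 1.28 and 1.33, each ± 0.14, with limma adjusted p of 3.51e-05, 1.97e-06 and 8.7e-07.

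Cdk2, the kinase that the E cyclins activate, rose in the same way. Control brain gave 5.14, 5.31, 5.05 and 5.48. PDGF+p53-/- tumours gave 7.31, 6.93, 6.54 and 7.12, PDGF+p53-/-RBPjk-/- tumours 7.06, 7.16, 6.98 and 7.32, and p53-/-RBPjk-/- tumours 7.32, 6.79, 7.33 and 6.99. The tumour groups overlapped each other and none overlapped control brain. The rises were 1.73, 1.88 and 1.86, each ± 0.17, with limma adjusted p of 4.88e-07, 1.6e-07 and 1.06e-07.

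The windows before Cdk2 and Ccne1 are shown side by side because the first gene rose and the second did not pass the test. Both are from RefSeq on GRCm38.p6, minus strand, at chr10:128705052-128705301 for Cdk2 and chr7:38107491-38107740 for Ccne1. Capitals mark GCGGGAAA, the reverse strand of the E2F letters TTTCCCGC.
Cdk2: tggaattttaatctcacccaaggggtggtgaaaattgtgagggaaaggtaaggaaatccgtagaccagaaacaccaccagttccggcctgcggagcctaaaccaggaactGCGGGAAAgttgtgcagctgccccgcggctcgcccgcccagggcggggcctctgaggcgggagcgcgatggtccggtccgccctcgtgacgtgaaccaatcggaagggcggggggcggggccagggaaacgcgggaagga
Ccne1: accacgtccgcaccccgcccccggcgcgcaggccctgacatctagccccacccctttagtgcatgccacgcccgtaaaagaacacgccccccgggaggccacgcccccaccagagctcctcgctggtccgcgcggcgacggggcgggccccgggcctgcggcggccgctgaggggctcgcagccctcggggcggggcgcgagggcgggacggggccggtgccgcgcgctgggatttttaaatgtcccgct
The E2F search covered TTTCGCGC, TTTGGCGC, TTTCCCGC and TTTGCCGC on both strands. Of the 2 windows, the one before Cdk2 held 1 match, at position -140, and 1.86% of all windows hold at least 1. No E2F letters were found in the windows of Cdk4 and Ccnd3, which rose, nor in those of Cdk6 and Ccne1. Other spellings, and bases outside these windows, were not searched. A match does not show binding, and a link between these letters and the expression values was not tested. The GC box GGGCGG, on either strand, occurred 5 times before Cdk2 and 4 times before Ccne1, and 32.7% of windows hold it. Bases G and C made up 63.2% of the Cdk2 window and 76% of the Ccne1 window, with a median of 52.4% over all windows. Ccnd1, Ccnd2 and Ccne2 are named only.

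**Figure D2:**
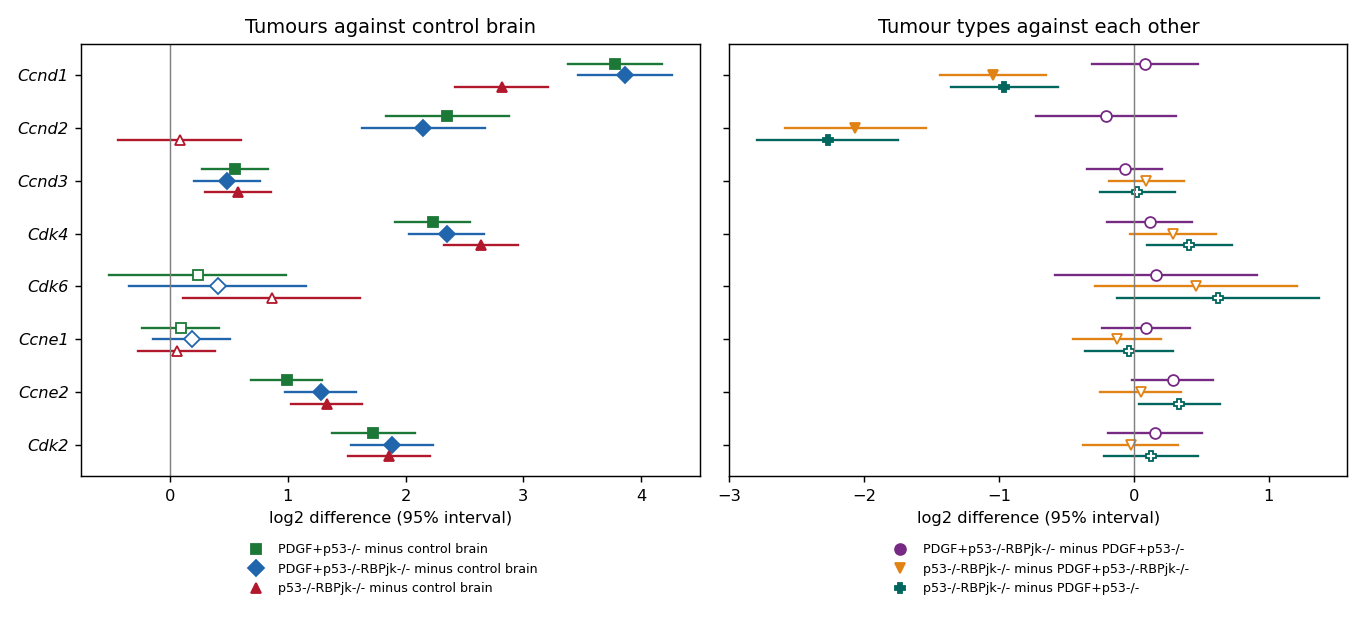
Log2 differences of the 8 genes, as points with 95% intervals from limma, for tumours against control brain (left) and tumour groups against each other (right); filled points passed the adjusted threshold. Ccnd1 has the largest values against control brain (3.77, 3.86 and 2.82), and Ccnd2 in p53-/-RBPjk-/- tumours stands at 0.08 with an interval across 0.

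For each call against control brain, the 4 tumour arrays lay beyond the 4 control arrays. The exact permutation test gave p = 0.0286 (two-sided), the smallest it can give here. Groups without overlap numbered 6, 7 and 5 of the 8 genes in the order of tumours above, against 30%, 34.5% and 34.4% of all genes.

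The comparison of PDGF+p53-/-RBPjk-/- with PDGF+p53-/- tumours asks what loss of RBPjk adds when PDGF-B is present. None of the 8 genes passed the limma test, where 0.0201% of all genes did. None reached an unadjusted p of 0.05 either, and the lowest unadjusted p was 0.0596. The difference was 0.08 for Ccnd1 (95% interval -0.31 to 0.48), -0.21 for Ccnd2 (-0.73 to 0.32) and 0.29 for Ccne2 (-0.01 to 0.59). Arrays overlapped for all 8 genes, where 3.17% of all genes had no overlap, and exact permutation p ran from 0.0857 to 0.743. These intervals do not show that the groups are alike.

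The p53-/-RBPjk-/- tumours were then set against each of the groups with PDGF-B. Against PDGF+p53-/-RBPjk-/- tumours they differ in the retrovirus and in the cells that lost the floxed alleles, which cannot be told apart. Ccnd1 and Ccnd2 were lower and the other 6 genes did not pass, against 2.63% of all genes that were lower. Ccnd1 fell by 1.04 ± 0.19, or 2.06-fold (limma, adjusted p = 0.007), and Ccnd2 fell by 2.06 ± 0.25, or 4.18-fold (limma, adjusted p = 0.000651). Against PDGF+p53-/- tumours, which kept RBPjk, the same 2 genes were lower, against 3.61% of all genes. Ccnd1 fell by 0.96 ± 0.19 (1.94-fold; limma, adjusted p = 0.00723) and Ccnd2 by 2.27 ± 0.25 (4.82-fold; limma, adjusted p = 0.000185). Ordered from the highest difference down, this Ccnd2 value stood at place 19923 of 19938 genes. All 4 differences had no overlap of arrays and an exact permutation p of 0.0286. The 2 comparisons share the p53-/-RBPjk-/- arrays.

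**Figure D3:**
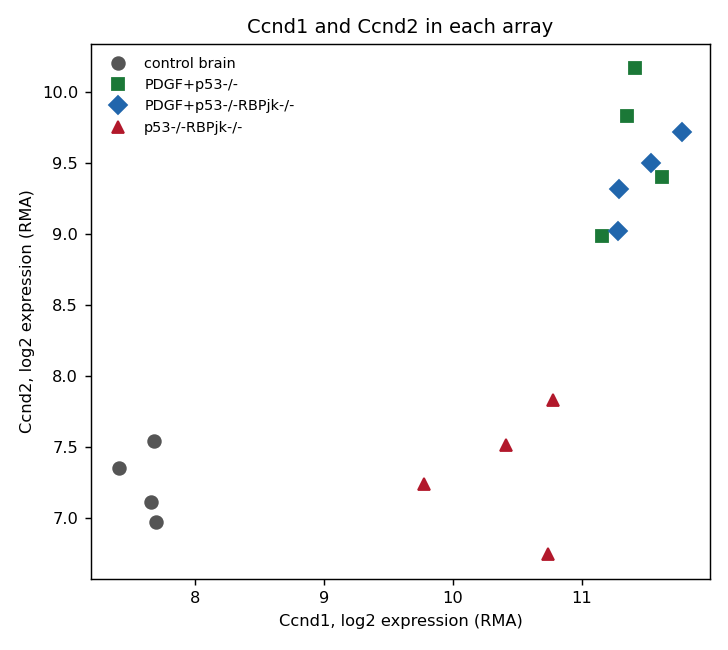
Ccnd2 against Ccnd1 in log2 units on each of the 16 arrays, coloured by group. Control arrays are low for both genes, the 8 arrays of tumours with PDGF-B are high for both, and the 4 p53-/-RBPjk-/- arrays are high for Ccnd1 (9.78 to 10.78) with Ccnd2 at 6.74 to 7.83.

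The lower Ccnd1 lost its call under 1 of 25 alternatives in each comparison. Every p53-/-RBPjk-/- array had a female pattern of sex-linked genes, compared with 2 arrays of control brain and 1 of each other tumour group. With sex as a term the Ccnd1 difference from PDGF+p53-/-RBPjk-/- tumours was -1.11 (limma, adjusted p = 0.0555). When only the 2 groups entered the fit, the difference from PDGF+p53-/- tumours was -0.96 (limma, adjusted p = 0.059). Over all 25 alternatives the limma adjusted p ran from 0.00177 to 0.0555 in the first comparison and from 0.00498 to 0.059 in the second. The 1 female-pattern array of each group with PDGF-B had Ccnd1 at 11.16 and 11.78 and Ccnd2 at 8.99 and 9.72. These values lay above every p53-/-RBPjk-/- array for both genes. With no male-pattern p53-/-RBPjk-/- array, the sex term was estimated from the other groups only. Sex and group could not be told apart within p53-/-RBPjk-/- tumours. Replicate 3 of the p53-/-RBPjk-/- tumours, with the lowest Ccnd1 of its group, also had the lowest mean of oligodendrocyte precursor markers (8.93) and the highest mean of neuronal markers (7.76) there. None of the 8 neuronal markers differed between tumour groups by limma, and of the 7 precursor markers 1 was higher than in PDGF+p53-/-RBPjk-/- tumours and 1 lower than in PDGF+p53-/- tumours. Astrocyte markers were lower in p53-/-RBPjk-/- tumours, 1 of 7 against PDGF+p53-/-RBPjk-/- and 3 of 7 against PDGF+p53-/- tumours. Their array means were 7.55 to 8.07, below the 8.22 to 8.61 of PDGF+p53-/-RBPjk-/- tumours and overlapping the 7.94 to 9.53 of PDGF+p53-/- tumours. Of the neuroblast and stem cell markers 1 of 7 was lower in each comparison. Their array means were 7.89 to 8.16, below the 8.36 to 8.57 of PDGF+p53-/- tumours and overlapping the 8.13 to 8.44 of PDGF+p53-/-RBPjk-/- tumours. Of the microglia and macrophage markers 1 of 8 was lower in each comparison. The part of these markers in the difference was not tested.

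Cdk4 stood highest in p53-/-RBPjk-/- tumours without passing the test. The difference was 0.41 ± 0.15 from PDGF+p53-/- tumours (limma, adjusted p = 0.124) and 0.29 from PDGF+p53-/-RBPjk-/- tumours (limma, adjusted p = 0.351). Arrays did not overlap in either comparison (exact permutation p = 0.0286). In each comparison 3 of the 8 genes had no overlap, Ccnd1, Ccnd2 and Cdk4, against 9.75% and 9.69% of all genes.

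Genes next to the 8 on the chromosome, up to 10 measured on each side, were read for shifts of a whole stretch. For Ccnd1 the mean of 14 neighbours, less its control mean, lay between -0.03 and 0.25 on every array. For Ccnd2 the mean of 20 neighbours lay between -0.04 and 0.17. Of the Ccnd2 neighbours, 2 of 20 were lower in p53-/-RBPjk-/- tumours than in each group with PDGF-B and 0 were higher. Among all genes 3.61% were lower than in PDGF+p53-/- tumours and 2.63% lower than in PDGF+p53-/-RBPjk-/- tumours. Against control brain 13.6%, 15.7% and 16.4% of all genes were higher and 17.6%, 17.9% and 20.4% lower, in the order of tumour groups above. The neighbours of Cdk4 went both ways, with 1, 3 and 5 of 20 higher and 7, 7 and 7 lower than control brain. Their median differences were -0.09, -0.03 and 0.01, and their mean was below control in every tumour array, down to -0.48. Of the 20 neighbours of Ccne2, 5, 4 and 9 were higher and 4, 5 and 3 lower. Of the 20 neighbours of Cdk2, 8, 11 and 8 were higher and 1, 2 and 2 lower. Their mean was above control in every tumour array, by 0.24 to 0.64, with Cdk2 itself up by 1.29 to 2.08. For Cdk6, replicate 3 of the p53-/-RBPjk-/- tumours had Cdk6 at 2.40 above control and its 10 neighbours at 0.00. In replicate 1 the neighbours averaged 0.75, and 8 of 10 were the highest of 16 arrays, with Krit1 at 1.18 and Rbm48 at 1.09, while Cdk6 itself was 0.48 above control. Copy number was not measured here.

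**Figure D4:**
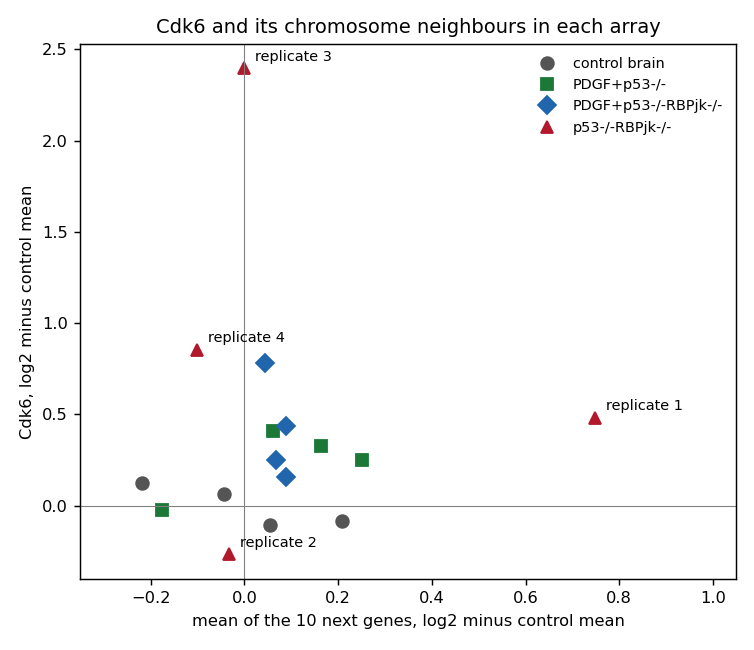
Cdk6 (vertical axis) against the mean of its 10 measured neighbours (horizontal axis) on each of the 16 arrays, both as log2 differences from the control mean. The p53-/-RBPjk-/- replicate 3 shows Cdk6 at 2.40 with neighbours at 0.00, and replicate 1 shows neighbours at 0.75.

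Other genes of the pathway are given by role, with counts in the order PDGF+p53-/-, PDGF+p53-/-RBPjk-/- and p53-/-RBPjk-/- tumours against control brain. Among 12 inputs to the D cyclins, 6, 6 and 5 rose and 0, 1 and 1 fell, with medians of 0.40, 0.46 and 0.35. Pdgfra, the receptor of PDGF, rose by 3.53, 3.26 and 3.87, and Myc, a transcription factor induced by growth factors, rose by 3.05, 3.48 and 3.80. Pdgfra is also among the precursor markers. Pdgfrb, the other PDGF receptor and a marker of vessel mural cells, fell by 0.64 in p53-/-RBPjk-/- tumours and did not pass the test in the others. Pdgfb itself lay within 5.69 to 6.20 in control brain, 5.81 to 6.31 and 5.88 to 6.19 in the tumours with the retrovirus, and 5.23 to 5.77 in the others. Whether the probe set reads the viral transcript is not given in the sources used here.

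Of 6 measured CDK inhibitors, which bind and block these kinases, 3, 4 and 5 rose and 0, 0 and 1 fell, with medians of 0.99, 1.32 and 0.87. Cdkn2c, which encodes the Cdk4 and Cdk6 inhibitor p18, rose by 2.85, 3.25 and 2.95. Cdkn2b, which encodes p15, rose by 1.64, 1.86 and 1.12. Cdkn2d, which encodes p19, had differences of -0.36, -0.15 and -0.76, of which the last passed the test. Cdkn1a was not measured by a usable probe set.

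Of the retinoblastoma family, Rbl1, which encodes p107, rose by 2.27, 2.37 and 2.72 and the other 2 genes did not pass. Of 10 E2F and DP factors, 4, 5 and 6 rose and 1, 1 and 0 fell, with medians of 0.29, 0.49 and 0.52. E2f8, a repressor of the family, rose by 2.38, 2.68 and 2.90, and E2f7, its close relative, by 1.07, 1.34 and 1.43. All 15 measured S phase genes under E2F control rose in each tumour group, with medians of 2.08, 2.14 and 2.03. Rrm2, a subunit of ribonucleotide reductase, rose by 3.37, 3.82 and 3.11.

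Of 16 genes for CDK activation and cyclin turnover, 5, 5 and 6 rose and 1, 1 and 3 fell, with medians of 0.10, 0.07 and 0.28. Cks1b, a small CDK-binding protein needed to destroy p27, rose by 2.88, 3.13 and 3.09. Fbxw7, the ligase subunit that marks cyclin E for degradation, fell, with differences of -1.64, -1.79 and -1.70. Of 5 measured later cyclins and Cdk1, 4 rose in each group, with medians of 2.84, 3.13 and 2.63. Ccna2, the cyclin of S phase, rose by 3.44, 3.63 and 3.70, and Cdk1, the mitotic kinase, by 3.11, 3.44 and 3.61. These lists were chosen with results of these data known, so the counts describe them only.

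The 24 other cyclins and CDKs, many of which act in transcription or in neurons, went both ways. There 4, 3 and 7 rose and 9, 10 and 11 fell, with medians of -0.09, -0.17 and -0.02. Cdk5r1, the activator of the neuronal kinase Cdk5, fell in all 3 tumour groups, with differences of -0.999, -1.03 and -1.19. Cdk14 fell in all 3 as well, with differences of -1.18, -1.25 and -0.95. The neuronal markers fell beside them, and their part was not tested. With arrays centred on housekeeping genes, this list had 8, 9 and 12 genes that rose and 6, 6 and 7 that fell.

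**Figure D5:**
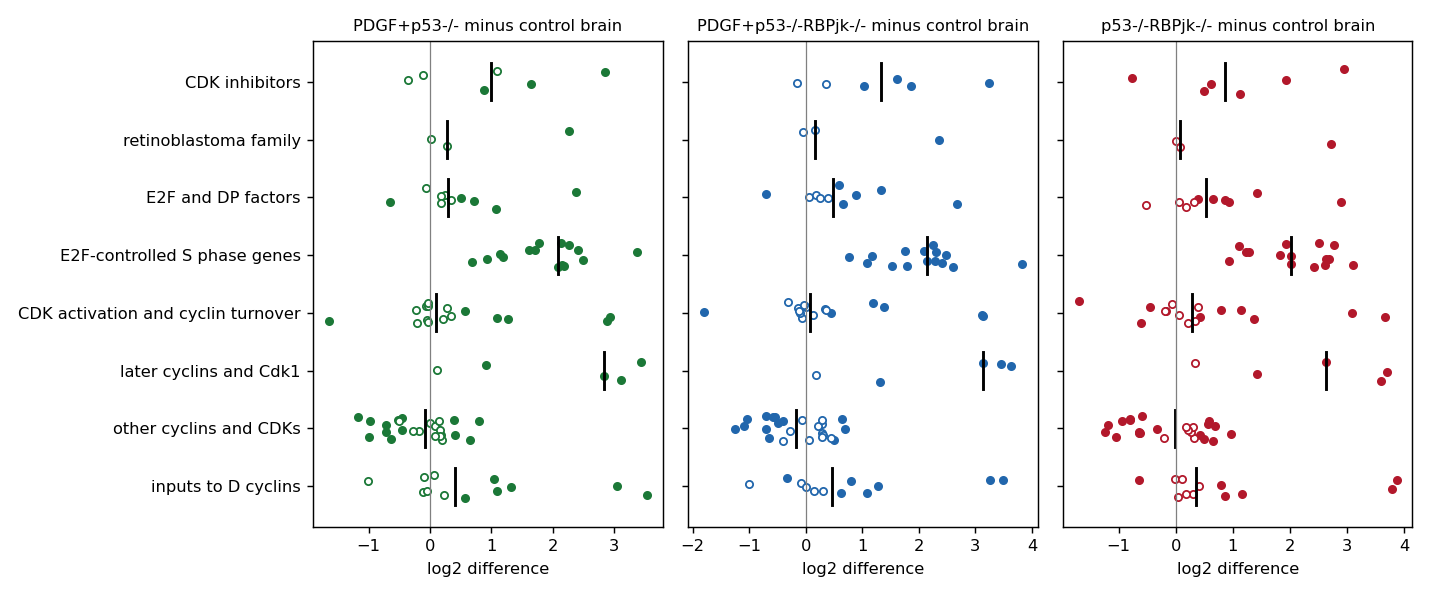
Log2 difference from control brain of every measured gene of 8 pathway lists in the 3 tumour groups; filled points passed the limma test and black bars are list medians. All 15 S phase genes are higher in each group, and the 24 other cyclins and CDKs are split, with 9, 10 and 11 lower.

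Between the groups with PDGF-B no gene of these lists passed the test. Against PDGF+p53-/-RBPjk-/- tumours, Cdkn2d was lower in p53-/-RBPjk-/- tumours by -0.61 (limma, adjusted p = 0.0282) and Pdgfrb by -0.79 (limma, adjusted p = 0.0238). Against PDGF+p53-/- tumours, Cdkn1c, which encodes the inhibitor p57, was higher by 0.61 (limma, adjusted p = 0.025), and Pola1, a subunit of DNA polymerase alpha, by 0.60 (limma, adjusted p = 0.0336). Ccnl2 was higher by 0.56 and Cdk13 by 0.43, both of which act on transcription and splicing. Chosen after their values were seen, because their arrays overlapped, are Cks2, another small CDK-binding protein, higher by 0.74 (limma, adjusted p = 0.0286), and Ccny, which encodes cyclin Y, with a difference of -0.60 (limma, adjusted p = 0.0406). All 6 of these calls against PDGF+p53-/- tumours were lost without replicate 3 of those tumours, with limma adjusted p from 0.0509 (Ccnl2) to 0.101 (Cdk13). With housekeeping centring Ccny lost its call (-0.49; limma, adjusted p = 0.0916), as did Cdkn2d against PDGF+p53-/-RBPjk-/- tumours (-0.53; limma, adjusted p = 0.0648).

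The genes whose levels followed each member most closely over the 16 arrays are given as a description, since 4 groups of arrays share each shift. Ccnd1 was most like Olig1, a transcription factor of the oligodendrocyte lineage, at a Pearson correlation of 0.983, then Pdlim5 and Rnf180. Ccnd2 was most like Myo16 at 0.950, then Pstpip2 and Hhipl2. Cdk4 was most like Cdca8 at 0.991, then Cenpf and Mcm6, which act in mitosis and in DNA replication. Cdk2 was most like Cdk1 at 0.984, and Ccne2 was most like Depdc1a at 0.977 and E2f8 at 0.974. The closest match was weaker for Ccnd3 (Pphln1, 0.936), Cdk6 (Fndc3c1, 0.937) and Ccne1 (Tomm40, 0.747).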

How the data were processed

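The authors deposited log2 expression values that the submitters' processing notes tie to RMA and oligo. Their versions, the annotation build and any filter: not given in the sources used here. RMA gives arrays alike distributions, so a change in total RNA per cell would not show. The table held 35556 probe sets on 16 arrays, without missing values, and the number of arrays limits precision. Of 23410 annotated probe sets, 21789 had 1 symbol and 1621 several, which were left out. For 999 genes with several probe sets the one with the highest mean was taken, leaving 19938 genes. GRCm38.p6 RefSeq tables gave neighbours and promoter windows.

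Groups followed the sample labels. Means of 4 groups were fitted together with limma 3.58.1 in R 4.3.3 (lmFit, eBayes; 12 residual and 5.33 prior degrees of freedom), with Benjamini-Hochberg adjustment over all genes for each of 6 comparisons and a threshold of 0.05; the script was tested on simulated data. Single genes were also tested by exact permutation over all 70 splits of 4 against 4 arrays, in Python 3.11.15 with numpy 2.4.6. From each pathway list, up to 2 called genes per direction and comparison with the largest difference and no overlap were named, and 3 most like genes per member; a gene that this rule names in 1 tumour group may be given in the others. The 8 genes and all lists were chosen with earlier results of these data known. 25 alternatives were run: every probe set, mean of probe sets, no dim genes, trend and robust fit, array weights, housekeeping centring, only the 2 groups, replicate block, sex term and each array left out.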

Additional observations from a re-analysis of the deposited data

Results flagged for a closer look

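In a group of 4 arrays, Dixon's test marked Ccnd1 in control brain replicate 2, at 7.41 below the 7.66 to 7.70 of the other control arrays. It also marked Ccnd3 in PDGF+p53-/-RBPjk-/- replicate 2, at 7.09 below the other 3 arrays. These are 2 of 32 groups checked, and chance marks about 1 in 20.

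The effect against control brain differed between tumour groups for both Ccnd1 and Ccnd2. For Ccnd1 the p53-/-RBPjk-/- tumours differed by -1.04 from PDGF+p53-/-RBPjk-/- tumours and by -0.96 from PDGF+p53-/- tumours. For Ccnd2 the differences were -2.06 and -2.27. Each passed the limma test of the difference itself.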

How the results depend on the processing

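Of 1200 values of the 8 genes under 25 alternatives, 1193 kept their side of the threshold, 2 lost the call and 5 gained it. Of values called in either fit, 0 changed direction. Differences without a call could change sign, and Ccnd2 in p53-/-RBPjk-/- tumours against control brain ran from -0.08 to 0.39. Of 150 counts of genes called, 148 were within 1.5 times the reported one. With a sex term the count against PDGF+p53-/-RBPjk-/- tumours fell from 2 to 1, and with only the 2 groups fitted the count against PDGF+p53-/- tumours fell from 2 to 1, through Ccnd1 in both. Housekeeping centring added Ccne1 in PDGF+p53-/-RBPjk-/- tumours (0.41; limma, adjusted p = 0.0495), Cdk6 in p53-/-RBPjk-/- tumours (1.17; limma, adjusted p = 0.014) and Cdk4 in p53-/-RBPjk-/- against PDGF+p53-/- tumours (0.53; limma, adjusted p = 0.041). Cdk6 in PDGF+p53-/-RBPjk-/- tumours passed when only the 2 groups were fitted (0.41; limma, adjusted p = 0.0477). That fit left out the widely spread p53-/-RBPjk-/- arrays, and the SE of Cdk6 was 0.15 there and 0.36 with all groups. Over the 25 alternatives the limma adjusted p of these results ran up to 0.677 (Ccne1), 0.224 (Cdk6 in p53-/-RBPjk-/- tumours), 0.509 (Cdk4) and 0.651 (Cdk6 in PDGF+p53-/-RBPjk-/- tumours). The cause of these changes was not tested. With each array left out in turn, the counts against control brain were 6, 6 and 5 to 6, and 0, 2 and 2 between tumours.

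Over all genes, housekeeping centring moved the share of calls that were higher from 43.5% to 66.4%, from 46.6% to 71.4% and from 44.5% to 75.2% against control brain. Between p53-/-RBPjk-/- and the PDGF-B tumours it moved from 34.8% to 64.5% (PDGF+p53-/-) and from 19.5% to 35.1% (PDGF+p53-/-RBPjk-/-). The sex term left 61 of 651 calls in number against PDGF+p53-/-RBPjk-/- tumours and 183 of 1105 against PDGF+p53-/- tumours. Fitting only the 2 groups left 395 and 289.

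With the replicate number as a block, the counts were 6, 6, 5, 0, 2 and 2, as reported. After removal of group means, same-numbered arrays correlated at -0.121 to 0.182, with a median of 0.0331 against -0.00935 for other pairs. By this measure 7 of 16 arrays were closest to their own number. Correlations this weak cannot decide whether the numbers pair the samples. Signal over background was not available from the deposited values, so low levels such as those of Cdk2 in control brain carry no detection call. The list counts with housekeeping centring and without PDGF+p53-/- replicate 3 were chosen after seeing the data, and no called list gene changed sign in either. Without that array, the list genes called between p53-/-RBPjk-/- and PDGF+p53-/- tumours went from 6 to 0. Housekeeping centring took them from 6 to 12, and from 2 to 1 against PDGF+p53-/-RBPjk-/- tumours. Against control brain it raised the genes that rose in p53-/-RBPjk-/- tumours from 5 to 10 among inputs to the D cyclins and from 6 to 10 for CDK activation and turnover, where 1 in place of 3 fell. It took the retinoblastoma family from 1 to 2 genes that rose in PDGF+p53-/- and p53-/-RBPjk-/- tumours, and the E2F and DP factors from 1 to 0 that fell in both groups with PDGF-B. Inputs that fell went from 1 to 0 in PDGF+p53-/-RBPjk-/- and p53-/-RBPjk-/- tumours.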
